A study of Mus musculus with 24 samples.

Results

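Immortalized mouse embryonic fibroblasts (MEFs) without Myc were compared with immortalized MEFs without both Myc and Mlx. The 3 libraries of immortalized Myc × Mlx double knockout cells (DKO) were set against the 3 libraries of immortalized Myc knockout cells (MycKO), 6 of the 24 samples of the series, over the 12880 of 41710 genes that reached 1 CPM (reads relative to library size, as scaled by the authors) in at least 3 of the 12 immortalized libraries. Both lines came from pooled embryos with floxed alleles of Myc (MycKO) or of Myc and Mlx (DKO) and a tamoxifen-inducible CreER driven by the ubiquitous Rosa26 promoter. By the study's text, cells with intact floxed alleles were immortalized with a lentivirus for SV40 T-antigen and selected in blasticidin, and excision was then induced with 500 nM 4-hydroxytamoxifen. DKO and MycKO cells are each 1 line grown from its own embryo pool. Nothing says that the 3 libraries of a line came from separate derivations, so the p-values measure only the spread between libraries of a line. The study's text describes the MycKO line as mostly tetraploid or nearly so after immortalization. Line, ploidy and embryo pool therefore cannot be told apart from loss of Mlx. Immortalized WT and MlxKO cells, with Myc present, and primary DKO and MycKO cells serve below only as comparisons, also with 3 libraries a group. The MlxKO cells and the primary DKO and MycKO cells also received 500 nM 4-hydroxytamoxifen, whereas by the study's text the WT cells were kept without it. Drug exposure therefore cannot be told apart from loss of Mlx in MlxKO against WT cells. By the study's text, WT cells carried floxed alleles that were not excised. The floxed line used for these WT libraries is not stated.

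Mlx is a helix-loop-helix leucine zipper protein that does not act alone. It binds DNA as the partner of MondoA (gene Mlxip) or ChREBP (gene Mlxipl), which carry glucose-derived signals into the nucleus. Mlx also pairs with some repressors of the Mxd family. Its best known targets are carbohydrate-response genes, above all Txnip, an arrestin-domain protein that limits glucose uptake, and the related Arrdc4, which act as a brake on glucose entry. Myc pairs with Max instead and binds a related DNA sequence, the E-box.

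The promoters of Txnip and Arrdc4 are shown because both genes fell in each comparison of Mlx loss described below. Each is the 250 bases before the start site of the canonical GENCODE transcript on GRCm39, read 5′ to 3′ on the gene's strand. Capitals mark the 2 motifs searched, on both strands, which were the E-box CACGTG and a paired E-box-like element, CACGNG and CACGNG with 5 bases between them, a form of the carbohydrate response element. Txnip lies on the plus strand (chr3:96465017-96465266) and Arrdc4 on the minus strand (chr7:68399000-68399249).
Txnip: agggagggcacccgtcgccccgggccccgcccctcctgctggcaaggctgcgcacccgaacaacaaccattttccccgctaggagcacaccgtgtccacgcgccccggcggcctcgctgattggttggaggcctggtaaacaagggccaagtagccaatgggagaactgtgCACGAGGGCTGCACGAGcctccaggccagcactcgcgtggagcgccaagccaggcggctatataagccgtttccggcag
Arrdc4: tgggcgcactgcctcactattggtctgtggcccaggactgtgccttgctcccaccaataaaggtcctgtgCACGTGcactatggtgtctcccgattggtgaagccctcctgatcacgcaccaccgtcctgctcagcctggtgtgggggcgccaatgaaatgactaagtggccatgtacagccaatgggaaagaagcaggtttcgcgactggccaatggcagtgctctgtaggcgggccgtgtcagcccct
The paired element of Txnip ends 63 bases before the start site. It was present in 11 of 21770 protein-coding promoters of this length, or 0.0505%. The E-box of Arrdc4 begins 180 bases before the start site, and an E-box stood in 6.26% of all promoters. The paired element stood in 7 of 12333 promoters of tested genes, 1 of a gene that fell (Txnip), 1 of a gene that rose and 5 of genes not called. Among tested genes the E-box was found in 6.89% of promoters of genes that rose in DKO cells, 7.17% of those that fell and 8.12% of those not called. A match is a stretch of letters and not a site shown to be bound.

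The DKO libraries held between 18119003 and 18500836 reads on genes and the MycKO libraries between 18327981 and 19851300, so that 3 reads, taken as the floor of counting error, were worth at most 0.183 CPM in any immortalized library. Within groups, Pearson's r across genes lay between 0.990 and 0.994 for DKO and between 0.983 and 0.996 for MycKO libraries, and between 0.924 and 0.939 for DKO with MycKO libraries. MycKO library 9 stood somewhat apart in short transcripts such as ribosomal protein genes, and immortalized WT library 4 stood apart from the other WT libraries (WT r from 0.943). WT 4 is not in the comparison but entered its shared estimate of the spread, so counts of calls without it are given where they moved by over 1.5 times. Of the fibroblast markers, Vim (5141, 5555 and 5597 CPM in DKO libraries 13, 14 and 15, and 4736, 4831 and 4934 CPM in MycKO libraries 9, 10 and 11, the order used throughout) was abundant in both lines. Some markers of other cell types were at or near 0 in all 6 libraries, with at most 0.0563 CPM of Ptprc (leukocytes) and of Epcam (epithelium), at most 0.102 CPM of Pecam1 (endothelium), and Myod1 (muscle) and Sox10 (glia) at 0. Other members of these lists were expressed, and 2 of 15 macrophage, 4 of 11 endothelial, 2 of 12 epithelial, 1 of 13 skeletal muscle and 5 of 13 neural and glial markers passed the filter. The summed level was 10.2 to 11.7 CPM in DKO against 5.80 to 7.36 CPM in MycKO libraries for the macrophage list, 27.2 to 33.9 against 18.5 to 21.1 CPM for the epithelial list and 265 to 289 against 183 to 218 CPM for the neural list, without overlap. It was 18.4 to 24.5 against 19.7 to 23.02 CPM for the endothelial and 1.16 to 2.04 against 0.716 to 1.26 CPM for the muscle list, which overlapped. Of the 5 neural and glial markers tested, 1 was higher and 4 lower, so the higher sum of that list did not hold for most of them. The part of these differences in other results was not tested.

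Mlx itself was lower in DKO cells but not absent. It measured 14.5, 18.0 and 17.7 CPM in the DKO and 27.8, 25.1 and 22.4 CPM in the MycKO libraries, without overlap. The difference in mean log2(CPM + 1), the scale of every fold change given here, which understates changes of low genes, was -0.56 ± 0.16 (SE, adjusted p = 0.0183 with limma and Benjamini-Hochberg adjustment over the 12880 genes). The call was lost without DKO library 13 (-0.46), MycKO library 9 (-0.48) or MycKO library 10 (-0.55). In the GENCODE annotation, 51.9% of the exonic bases of Mlx are shared with Psmc3ip on the opposite strand, the counting is not stated to use strand, and reads over exons outside the floxed part would still be counted. The total for the gene is thus a weak check of the excision. By the study's text, qPCR and immunoblots established excision and protein loss in the immortalized lines. Myc was at 8.02, 5.77 and 4.25 CPM in DKO and 17.2, 10.98 and 9.96 CPM in MycKO cells, against 48.1, 39.9 and 178 CPM in immortalized WT cells, and the difference of -0.97 ± 0.43 did not pass the test (adjusted p = 0.115). Mlxip, for MondoA, was at 57.9, 52.6 and 44.1 CPM against 44.1, 62.0 and 54.0 CPM (-0.04, adjusted p = 0.846). Mlxipl, for ChREBP, was below the filter, with at most 0.221 CPM.

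Txnip had the largest fall among genes that fell in all 3 comparisons of Mlx loss, ranked by the smallest of the 3 changes. It fell from 37.2, 41.4 and 38.4 CPM in MycKO cells to 0.682, 1.30 and 1.49 CPM in DKO cells (-4.23 ± 0.27, adjusted p = 3.5e-07). The DKO values lay far below every MycKO value. In cells that kept Myc, immortalized MlxKO against WT, Txnip fell by 3.52, and in primary DKO against MycKO cells by 2.46. The effects with and without Myc in immortalized cells differed by -0.71, which did not pass the test of the interaction (Txnip, adjusted p = 0.143). Arrdc4 fell from 7.72, 5.71 and 4.78 CPM to 0.739, 0.735 and 1.10 CPM (-1.91 ± 0.26, adjusted p = 0.000163), also without overlap. Arrdc4 fell by 3.31 with Myc present and by 1.82 in primary cells, and here the interaction of 1.39 passed the test (adjusted p = 0.0087), the fall being smaller in cells without Myc. Other arrestin-domain genes went the other way or did not move. Arrdc3, which targets receptors for ubiquitination, rose from 17.7, 17.7 and 19.2 to 53, 66.9 and 62.7 CPM (1.68 ± 0.17, adjusted p = 1.68e-05), and the beta-arrestin gene Arrb1 rose from 5.88, 8.57 and 7.65 to 38.3, 42.0 and 36.7 CPM (2.27 ± 0.34, adjusted p = 0.000345). Arrb2, Arrdc1 and Arrdc2 were between -0.21 and -0.10 and were not called.

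Of the 20 listed carbohydrate-response targets, 17 passed the filter, 5 rose and 3 fell, while 29.4% of all genes tested were called (14.8% higher and 14.6% lower). The third to fall beside Txnip and Arrdc4 was Acly, which makes cytosolic acetyl-CoA (-0.44 ± 0.11, adjusted p = 0.012). Besides Arrdc3, the risers were the lipogenic Me1 (0.41) and Acacb (0.78), the lipase inhibitor G0s2 (0.96) and Gpd1 (1.14), with G0s2 at 1.59, 1.64 and 1.55 CPM and Gpd1 at 1.71, 1.41 and 1.22 CPM in the DKO libraries. Gpd1 shares 53.1% of its exonic bases with an opposite-strand gene. The classical lipogenic targets Fasn (-0.35, adjusted p = 0.215) and Scd1 (0.39, adjusted p = 0.0531) were not called. The median of the list was 0.07 against -0.01 for all genes tested.

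**Figure D1:**
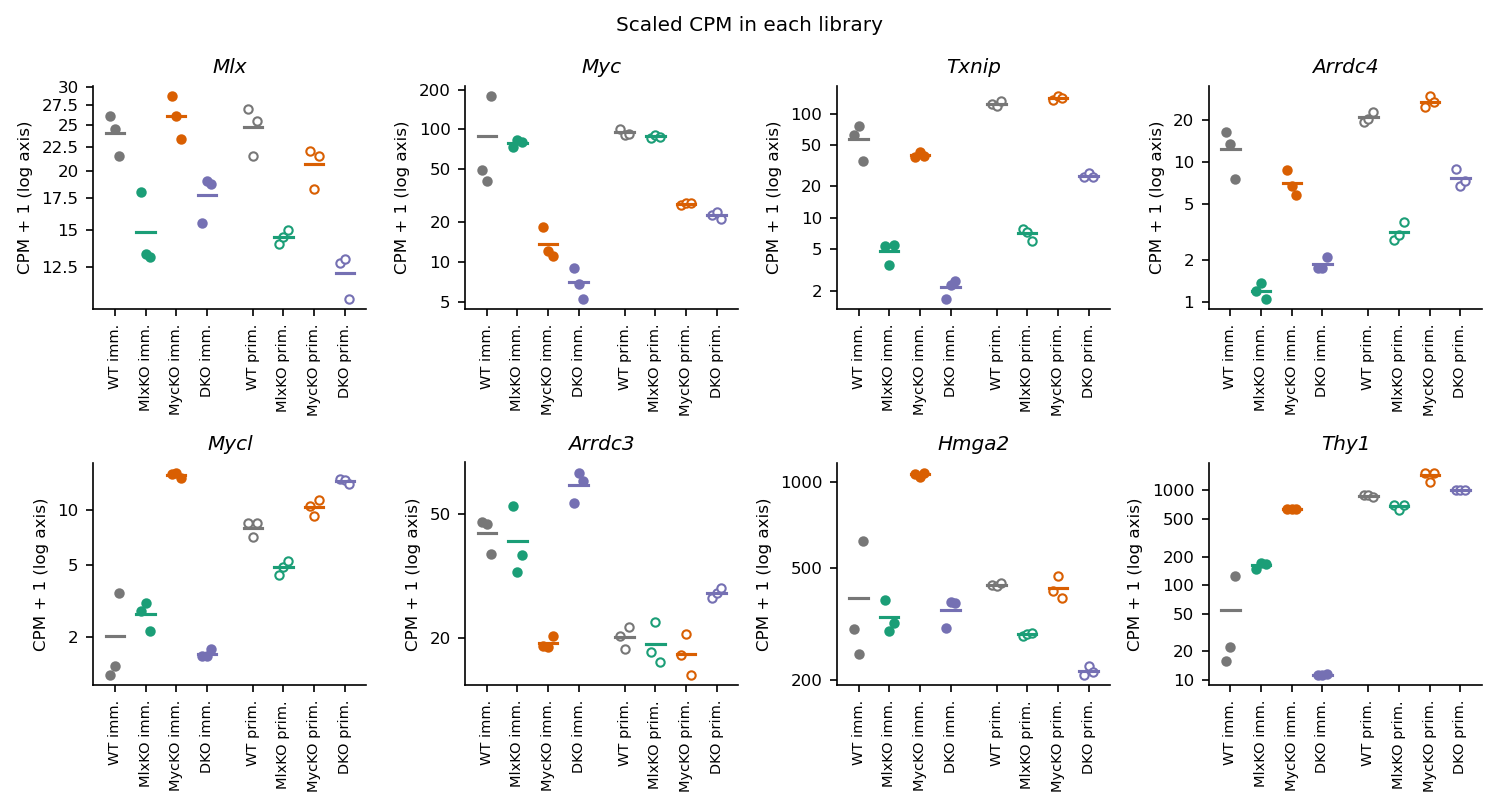
Scaled CPM + 1 on a log axis for 8 genes in every library of the 4 genotypes, immortalized (filled) and primary (open), with a bar at each group's mean. Txnip and Arrdc4 sit lower in both kinds of Mlx-deficient cell than in their Mlx-bearing counterparts, whereas Mycl, Arrdc3, Hmga2 and Thy1 separate the immortalized MycKO libraries from the DKO libraries.

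Across all genes 3788 of 12880 were called at an adjusted p under 0.05, of which 1909 rose and 1879 fell. Of them, 1415 changed by at least 1 on the log2 scale (11%). Groups did not overlap for 6395 genes (49.7%). This held for 3746 of the 3788 called genes, so lack of overlap adds little to a call. The count of calls was 5266 when WT library 4 was left out of the fit and 2578 without DKO library 14. It was 2829 without DKO library 15 and between 2923 and 3232 without a MycKO library. List counts given below for such fits also carry this general shift. Both directions are seen across the range of expression in the plot of difference against level.

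**Figure D2:**
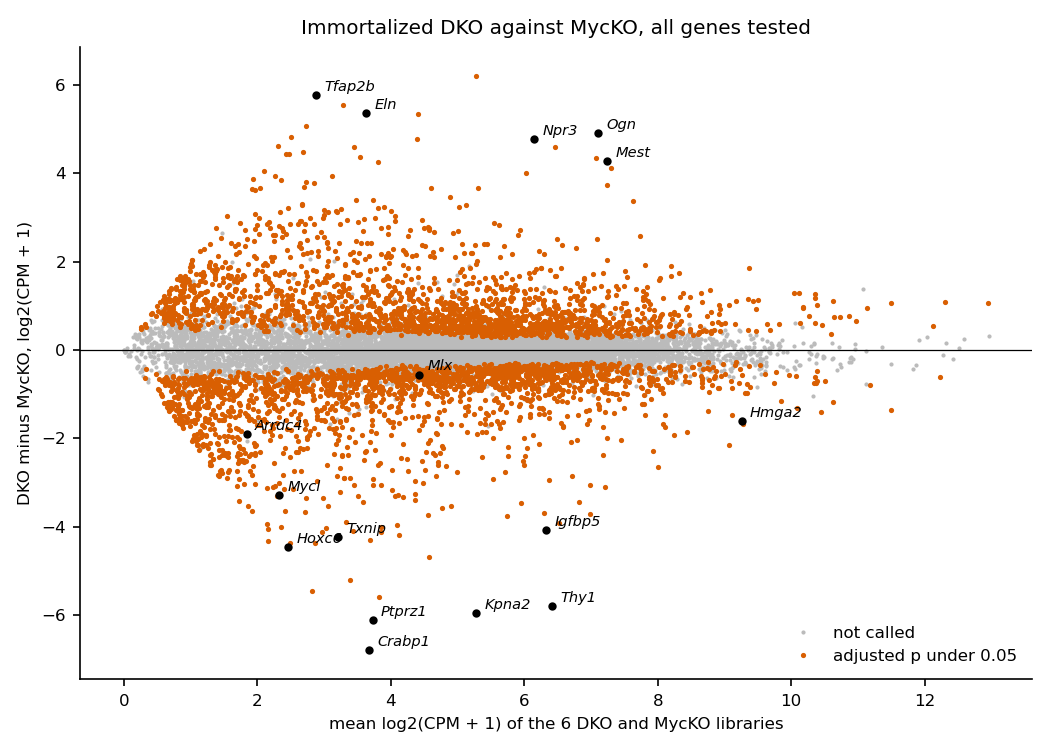
Difference between immortalized DKO and MycKO cells in log2(CPM + 1) for 12880 genes, against the mean log2(CPM + 1) of the 6 libraries, with the 3788 called genes in orange and named genes in black. Among the largest differences, Tfap2b at 5.77 and Crabp1 at -6.80 lie far outside the bulk of genes, the highest unlabelled point is Gm10184, the copy of Kpna2, and Txnip is among the low-abundance genes that fell.

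The same loss in cells with Myc, where WT cells had not been given 4-hydroxytamoxifen, gave a largely different picture. In immortalized MlxKO against WT cells, which share no library with DKO and MycKO, 5014 genes were called (38.9%), 49.0% of them higher, and groups did not overlap for 49.1% of genes. Scaling by library totals made 69.9% of the calls higher and the median 0.16, so directions in that comparison depend on the scaling. Of the 1710 genes called in both comparisons, 45.1% of the DKO list and 34.1% of the MlxKO list, only 285 moved in the same direction and 1425 moved in opposite directions. The share in the same direction was 14.3% without WT library 4, when 3033 genes were called in both, and 16.7% with it. The test of the interaction, whether Mlx loss changed a gene differently with and without Myc, called 6108 genes (47.4%), 49.9% of them positive, or 37.2% when scaled by library totals. In primary DKO against MycKO cells, where 2818 of 13101 genes were called (21.5%), 1100 genes were called in both, 30.6% of the immortalized list and 42.6% of the primary list, and 751 of them moved the same way. The primary and immortalized cells of a genotype also share their origin, so in this count Mlx loss and the embryo pool cannot be told apart.

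Only 70 of 12402 genes were called in the same direction in all 3 comparisons of Mlx loss, 35 higher and 35 lower. Ordered by the smallest of the 3 changes, Txnip and Arrdc4 were the 2 with the largest fall and the only ones to fall by at least 1 in each. Calls of at least 1 in either direction made up 11% of genes here, 6.72% in MlxKO against WT and 2.56% in primary cells. The 4 genes that rose by at least 1 in each, chosen after their values were seen, were Sod3, Dmpk, Six2 and Sp100. Sod3, extracellular superoxide dismutase, went from 7.82, 8.73 and 8.05 CPM to 61.6, 59.8 and 62.4 CPM (2.76 ± 0.43, adjusted p = 0.000414), and the DKO and MycKO libraries did not overlap. Six2, a homeobox factor of mesenchymal progenitors, rose by 2.46, Dmpk, a muscle protein kinase, by 1.41 and Sp100, a component of PML nuclear bodies, by 1.28. Lpl, the lipoprotein lipase that releases fatty acids from circulating fat, also fell in all 3, from 14.9, 18.1 and 15.8 to 0.625, 0.848 and 1.44 CPM here (-3.15 ± 0.20, adjusted p = 3.67e-07).

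**Figure D3:**
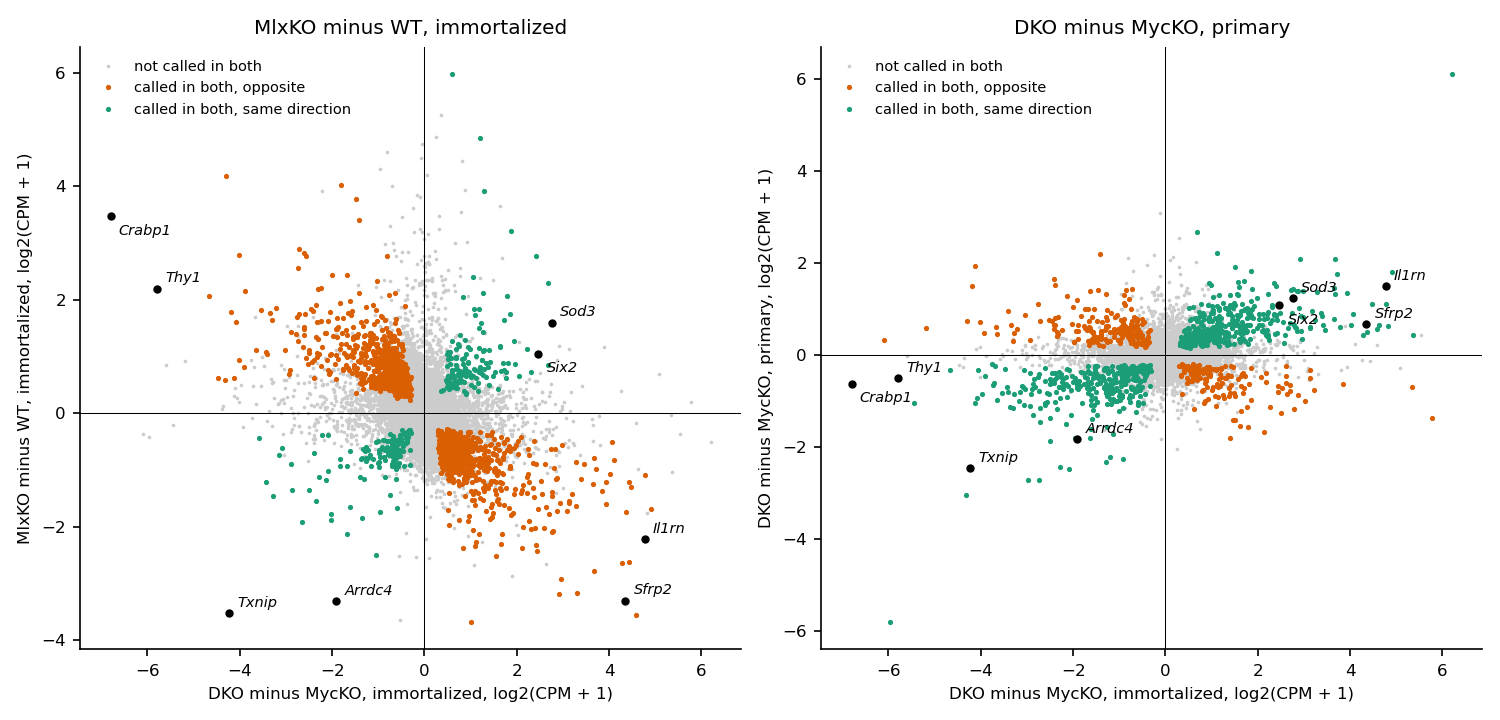
Difference between immortalized DKO and MycKO cells in log2(CPM + 1) on the horizontal axis, against that of immortalized MlxKO and WT cells (left) and of primary DKO and MycKO cells (right), each point a gene. Genes called in both comparisons lie mostly in the quadrants of opposite sign on the left (1425 of 1710) and of equal sign on the right (751 of 1100), and Txnip and Arrdc4 lie at the lower left in both.

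Within the Myc network, 2 paralogs of Myc fell and 2 Mxd repressors rose. Mycl fell from 14.8, 15.1 and 14.1 CPM to 0.569, 0.566 and 0.718 CPM (-3.28 ± 0.31, adjusted p = 9.05e-06), with no overlap. The interaction was -3.83, and in primary cells Mycl rose by 0.49 instead. Mycn fell from 2.10, 1.26 and 1.41 CPM to 0 in every DKO library (adjusted p = 4.81e-05), at least 9.31-fold lower against the 3-read floor. Of the Mxd repressors, Mxi1 rose by 0.64 and Mxd4 by 0.76 (adjusted p = 0.00533 and 0.00924), and Mxd1 and Mxd3 were not called. Among them, the study's text names Mxd1 and Mxd4 as able to pair with Mlx or Max. Max (0.03), Mnt (0.19) and Mga (0.08) did not pass the test. The other 6 of the 10 factors listed were not called.

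The Hmga genes, of which Hmga1 is known to restore growth in part to fibroblasts without Myc, were lower in DKO cells. The chromatin architectural factor Hmga1 fell from 1120, 1173 and 1100 CPM to 292, 233 and 244 CPM (-2.14 ± 0.26, adjusted p = 7.12e-05). Hmga1 shares 28.2% of its 32-base stretches with its copy Hmga1b, which was at no more than 4.19 CPM, so the 2 are not separate evidence, and the sum of the pair gave the same direction. Its relative Hmga2 fell from 1072, 1045 and 1082 CPM to 304, 377 and 375 CPM (-1.60 ± 0.26, adjusted p = 0.000581). The MycKO libraries were all above the DKO libraries for both genes. In primary cells Hmga1 was at -0.63 and Hmga2 at -0.97, both called, and the immortalized interaction of Hmga1 was -3.57. The serine hydroxymethyltransferases Shmt1 and Shmt2, of the one-carbon pathway, were not called here (-0.11 and -0.15).

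The genes with the largest rises had varied roles. Tfap2b, a transcription factor of neural crest and limb, was at 54.2, 54.9 and 51.5 CPM in DKO cells and at 0 in every MycKO library, at least 314-fold higher. Sall1, a zinc finger developmental factor, was likewise at 0 in the MycKO libraries and at 23.5, 24.1 and 23.3 CPM in DKO libraries, at least 139-fold higher. The matrix genes among them were Hapln1, a link protein for hyaluronan (5.54), Eln, elastin (5.36), and Ogn, osteoglycin, which went from 21.5, 24.5 and 27.0 CPM to 605, 860 and 831 CPM (4.91 ± 0.24, adjusted p = 4.27e-08). The others were the receptor phosphatase Ptprq (5.34), the protocadherin Pcdh17 (5.08), the X-linked Xlr3b (4.81), the natriuretic peptide clearance receptor Npr3 (4.78), the interleukin-1 antagonist Il1rn (4.77), the protease inhibitor Serpine2 (4.59) and corneodesmosin, Cdsn (4.59). Reads of Xlr3b may be split, as 65.6% of its 32-base stretches occur in other genes.

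The largest falls were as steep. Crabp1, a cytosolic retinoic acid binding protein, went from 185, 120 and 110 CPM to 0.0569, 0.0566 and 0.608 CPM (-6.80 ± 0.85, adjusted p = 7.67e-05). Thy1, a surface glycoprotein used to mark fibroblasts, went from 640, 633 and 634 CPM to 10.3, 10.2 and 10.7 CPM (-5.80 ± 0.53, adjusted p = 6.69e-06). Lack of overlap was a condition for naming these largest changes. The others were the receptor phosphatase Ptprz1 (-6.11), tenascin N, the orphan receptor Gpr149 (-5.45), the stretch-responsive nuclear protein Ankrd1 (-5.20), the glycosyltransferase Galnt17 (-4.68), Hoxc6 (-4.47), the forkhead factor Foxs1 (-4.38), the GABA receptor subunit Gabra4 (-4.37) and the synaptotagmin Syt13. Syt13 was at 0 in all DKO libraries and at 20.2, 17.1 and 19.9 CPM in MycKO libraries, at least 112-fold lower in DKO cells. The importin Kpna2 also met the rule (-5.96), but its near-identical copy Gm10184 moved the other way, and the sum of the pair was 293, 356 and 362 CPM in DKO against 312, 301 and 316 CPM in MycKO cells, a difference of 0.12. The difference in Kpna2 was also present in the primary cells of these genotypes (-5.80).

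Extracellular matrix genes were called more often than the background of 29.4%. Of 28 collagen chains tested, 12 rose and 7 fell, and of 53 other matrix proteins 19 rose and 15 fell. The fibrillar chains Col1a1 (1.07) and Col3a1 (1.28) rose, and Col2a1, the cartilage collagen, went from 0.614, 1.87 and 1.35 CPM to 39.3, 31.3 and 28.8 CPM (3.93 ± 0.28, adjusted p = 9.57e-07). The basement membrane chains Col4a3 (3.21) and Col4a4 (3.65) rose from at most 1.18 and 0.11 CPM, while Col4a1 (-0.48) and Col4a2 (-0.34) were not called. Col15a1 and Col7a1 each fell by 2.72, and Col5a3 fell by 2.21. Comp, a cartilage matrix protein, rose from at most 0.33 CPM to 17.9, 12.4 and 11.7 CPM. Of 32 metalloproteinases and TIMPs, 11 rose, led by Adamts18 (3.16), and 5 fell, among them the collagenase Mmp13 (-2.39). The cartilage and bone list had 6 of 11 members higher, among them Sox5 (2.82) and Sox6 (2.14), and 1 lower.

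Contractile genes fell. Of 21 tested, 12 fell and 1 rose, with a list median of -0.53. Actg2, smooth muscle gamma-actin, went from 394, 344 and 372 CPM to 34.4, 30.4 and 35.2 CPM (-3.43 ± 0.29, adjusted p = 3.17e-06). Myh11, smooth muscle myosin, went from 46.1, 64.6 and 63.5 CPM to 9.55, 8.31 and 6.08 CPM (-2.72 ± 0.22, adjusted p = 2.7e-06). For both genes the groups were apart. Mylk, which phosphorylates myosin, fell by 1.29, Tagln by 1.17 and Acta2, the myofibroblast actin, by 0.62. The riser was Ldb3, a Z-disc protein of striated muscle (2.25). In primary DKO against MycKO cells, 8 of 24 contractile genes rose and 0 fell.

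Ligands and antagonists of the BMP, IGF and Wnt pathways were rearranged. In the TGF-beta and BMP list, 14 of 31 rose and 8 fell. The BMP antagonist Grem1 (-3.91) fell from 335, 372 and 359 CPM to 20.8, 24.9 and 22.4 CPM, whereas the antagonists Nog (1.62) and Chrd (1.22) rose. The ligands Bmp4 (2.19) and Gdf6 (3.66) rose, as did the BMP target genes Id1 (1.11), Id2 (1.07), Id3 (1.05) and Smad6 (2.00), and the ligands Tgfb1 (-1.33), Tgfb3 (-1.75) and Inhba (-1.93) fell. Of 18 IGF genes, 2 rose and 8 fell. The binding proteins Igfbp3 (-4.11), Igfbp5 (-4.08), Igfbp6 (-4.01) and Igfbp7 (-1.68) and the ligand Igf2 (-1.45) fell, while Igfbp4 (1.92) rose. Of 38 Wnt genes 13 rose and 13 fell. The Wnt antagonist Sfrp2 went from 27.0, 29.3 and 30.9 CPM to 621, 599 and 614 CPM (4.35 ± 0.53, adjusted p = 6.6e-05), and its relative Sfrp1 went the other way, from 28.9, 36.2 and 30.2 CPM to 1.36, 0.735 and 0.608 CPM (-4.12 ± 0.22, adjusted p = 7.44e-08). Both genes had groups that did not overlap.

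Hox genes, which keep a record of the body region a fibroblast came from, divided by cluster. All 8 tested HoxB genes and 8 of 9 HoxC genes fell, with cluster medians of -2.46 and -2.41, and no gene of these clusters rose. In HoxA, 4 of 9 rose and 0 fell, and in HoxD, 4 of 7 rose and 0 fell. The members that rose were Hoxa4 and, at the 5′ end of their clusters, Hoxa9, Hoxa10, Hoxa13, Hoxd9, Hoxd10 (2.19), Hoxd11 and Hoxd13 (1.62). Hoxc8 went from 16.7, 17.6 and 17.3 CPM to 0, 0.17 and 0.11 CPM (-4.06 ± 0.15, adjusted p = 5.71e-09), and Hoxb9 from 51.3, 58.1 and 61.5 CPM to 4.61, 4.81 and 4.86 CPM (-3.33 ± 0.41, adjusted p = 7.21e-05). In primary cells of the same genotypes, 0 of 8 HoxB genes were called, and of 9 HoxC genes 2 rose and 1 fell. There 5 of 9 HoxA genes and 1 of 7 HoxD genes rose, and 0 of either cluster fell.

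Imprinted genes of the growth network were also called often, with 12 of 22 lower and 2 higher and a median of -1.30. The falls took in Dlk1 (-2.40), Meg3 (-1.53) and Rian (-1.36), which share an imprinted region, as well as Peg3 (-2.32) and the CDK inhibitor Cdkn1c. Mest rose from 35.4, 34.1 and 30.8 CPM to 656, 663 and 681 CPM (4.28 ± 0.74, adjusted p = 0.00098), with no overlap, although 47.7% of its exonic bases are shared with Copg2 on the opposite strand. Plagl1, a zinc finger regulator of imprinted genes, rose by 1.84. H19 (0.06) was not called. Sex-linked genes differed as well, since Ddx3y of the Y chromosome was at 1.25, 1.75 and 2.04 CPM in DKO and 19.1, 20.8 and 19.8 CPM in MycKO libraries, and Xist, expressed from the inactive X, at 1133, 1156 and 790 CPM against 396, 526 and 483 CPM. All 4 Y-linked genes of the list fell, and with Xist 5 of 5 were called, but only 2 without DKO library 14 or MycKO library 11 and 3 without DKO library 13, MycKO library 9 or MycKO library 10. The part of this difference in other results was not tested. Autosomes had medians between -0.09 and 0.06 and between 23.6% and 33.3% of their genes called, and on the X chromosome 35.1% of 425 genes were called.

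Metabolic genes changed in smaller steps. Of all genes tested, 29.4% were called, 14.8% higher and 14.6% lower. Mitochondrially encoded transcripts, a list chosen after their values were seen, rose for 12 of 15 tested, and none fell. mt-Co1 went from 2672, 3886 and 4142 CPM to 6071, 8237 and 8106 CPM (1.08 ± 0.24, adjusted p = 0.00435), and mt-Cytb from 655, 977 and 1049 to 1585, 2215 and 2204 CPM (1.17). Reads of this genome made up between 1.77% and 2.53% of the DKO and between 0.866% and 1.24% of the MycKO libraries. In MlxKO against WT cells 14 of the 15 fell and in primary DKO against MycKO cells 7. Those comparisons called 38.9% and 21.5% of all genes. Of 63 nuclear respiratory chain genes 0 were higher and 3 lower (4.76% called). Calls numbered 8 without WT library 4 and 0 without DKO library 14, DKO library 15 or MycKO library 9. They numbered 1 without DKO library 13, MlxKO library 7, MycKO library 10 or WT library 3. Sterol synthesis genes fell for 8 of 25 and rose for none (32% called, close to the 29.4% of all genes). Among those that fell was Mvd, an enzyme of the mevalonate pathway, from 21.4, 21.9 and 20.65 CPM to 10.9, 9.79 and 9.72 CPM (adjusted p = 0.00077, no overlap). Sqle (-0.06), which oxidizes squalene, was not called. The sterol count was 14 without WT library 4, 2 of them higher, and 5 without DKO library 15. Fatty acid synthesis genes rose for 7 of 17, among them Dgat2 (0.68), Acss2 (0.65) and the desaturase Fads2 (0.61), and fell for 1 (47.1% called). The count of this list was 4 without DKO library 14 and 5 without DKO library 15 or MycKO library 10. Of 28 genes of glucose uptake and glycolysis 5 rose, led by the transporter Slc2a3 (1.64), and 7 fell, led by the lactate exporter Slc16a3 (-0.90). This was 42.9% called, and 18 were called without WT library 4.

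Cytosolic ribosomal protein genes, frequent targets of Myc, were called less often than the 29.4% of all genes. Of 82 tested, 14 were lower and none higher (17.1%, against 14.6% of all genes called lower), with a list median of -0.44. This rested on MycKO library 9, as Rpl13 shows with 783 CPM there against 451 and 445 CPM in the other MycKO libraries and 329, 269 and 312 CPM in the DKO libraries. Without that library the count was 3 and the median -0.11, without DKO library 14 it was 1, without DKO library 15 it was 4, without DKO library 13 it was 9, and without WT library 4 it was 29. For mitochondrial ribosomal proteins, 6 of 78 were lower (7.69%), and for ribosome biogenesis and Pol I genes 1 of 57 (1.75%), which was Fbl, fibrillarin (-0.57). Without WT library 4 these counts were 13 and 10. The mitochondrial count was 2 without DKO library 14 or MycKO library 9 and 3 without MycKO library 11, and the biogenesis count was 2 without MycKO library 9 or WT library 2. Circadian clock genes rose for 10 of 18 with a median of 0.56. The nuclear receptor gene Rora rose from 16.1, 20.6 and 18.0 CPM to 63.6, 73.0 and 68.0 CPM (1.85 ± 0.16, adjusted p = 4.52e-06), and Per1 (1.06), Ciart (1.05), Per2 (0.85), Cry2 (0.72) and Nr1d1 (0.65), which encode repressors within the clock, also rose. Hlf fell (-1.61). The activators Clock (0.37, adjusted p = 0.053) and Arntl (-0.25, adjusted p = 0.124), were not called.

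Genes of replication and mitosis were called less often than the background. Of 62 E2F and replication genes 1 rose and 5 fell, and of 63 mitotic genes 4 rose and 1 fell (9.68% and 7.94% called, against 29.4% of all genes). Without WT library 4 calls numbered 12 and 11. The replication count was 2 without DKO library 14 and 3 without DKO library 15 or MycKO library 10, and the mitotic count was 1 without DKO library 14 or 15, 2 without MycKO library 9, 10 or 11 and 3 without MlxKO library 7. In primary cells 30 of 62 and 40 of 63 were lower. Regulators of G1 did change, with 5 of 9 lower and none higher. Cdk6, which drives entry into S phase with D cyclins, fell from 36.7, 48.1 and 46.1 CPM to 7.85, 7.30 and 6.02 CPM (-2.47 ± 0.27, adjusted p = 3.08e-05, no overlap), Ccnd2 by 1.11 and Ccnd3 by 0.54, while Ccnd1 (0.46) was not called. Of the CDK inhibitors and Rb family, Cdkn2c (1.05), Cdkn1b (0.55) and Rbl2 (0.39) rose and Cdkn1c (-1.44), Cdkn2b (-0.54) and Cdkn2d (-0.43) fell. Cdkn1a (-0.30) and Cdkn2a (-0.24), the p53 and senescence markers, were not called. The 6 calls in this list became 3 without DKO library 14. Among 35 p53 genes 31.4% were called, close to the 29.4% of all genes. Of them 7 rose, led by Gdf15 (2.08), Btg2 (1.58) and Fas (1.16), and 4 fell. These 11 calls became 7 without DKO library 14 or 15. Calls over all genes also dropped then, from 3788 to 2578 and 2829. Of 37 homologous recombination genes 2 were higher and 1 lower (8.11% called, against the background of 29.4%). End joining genes were higher for 3 of 13 (23.1%), led by Xrcc5 (Ku80, 0.73). Of 34 excision and mismatch repair genes 4 were called in each direction (23.5%), led by Ercc6 (1.09). The shares of end joining and excision genes were nearer the background. Without DKO library 14 these 3 lists had 1, 1 and 3 calls. The recombination count was also 1 without DKO library 15, MlxKO library 6 or 7, or MycKO library 10 or 11, and 5 without WT library 4, the end joining count was 1 without MycKO library 11 and 5 without WT library 4, and the excision count was 5 without DKO library 15 or MycKO library 9.

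Interferon-stimulated genes rose for 31 of 46 in MlxKO against WT and for 38 of 45 in primary DKO against MycKO cells. Those comparisons called 38.9% and 21.5% of all genes. In immortalized DKO against MycKO cells 1 of 46 was called, against 29.4% of all genes. This was Ifit2, an antiviral RNA-binding protein, from 42.7, 38.5 and 39.1 CPM to 96.7, 104 and 99.2 CPM (1.30 ± 0.22, adjusted p = 0.000858). The list median was 0.20, and the interaction was called for 14 of the 46. The summed level of the list was 6015 to 6390 CPM in DKO and 5062 to 5337 CPM in MycKO libraries, without overlap. In the WT libraries it ranged from 616 to 5733 CPM. The low count depended on WT library 4, without which 18 were higher and 4 lower, and was 2 without WT library 2 or 3. For MHC class I and antigen presentation, 2 of 23 rose, 5 were higher and 6 lower without WT library 4, 4 were called without WT library 3, 1 without DKO library 13, and 0 without DKO library 14 or 15 or any MycKO library. Complement and acute phase genes rose for 7 of 17, with Ptx3 going from 21.9, 24.6 and 22.3 CPM to 165, 148 and 159 CPM (2.73 ± 0.25, adjusted p = 6.46e-06), and fell for 3, led by the C1 inhibitor Serping1 (-2.90). Of 30 chemokines and cytokines 3 rose and 7 fell (33.3%, close to the 29.4% of all genes), and 16 were called without WT library 4. Stress genes under ATF4 were called for 30.4% of 23, close to the 29.4% of all genes, and for 12 without WT library 4. Of them 6 rose, among them the cystine transporter Slc7a11 (1.33) and Slc7a5 (0.73), and 1 fell, Ddit4 (-0.83).

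Markers of other lineages changed at low or moderate levels. All 5 tested adipocyte markers were called, with Pparg, the master regulator of fat cells, higher at 23.9, 31.4 and 34.6 CPM against 9.05, 8.68 and 10.8 CPM (1.55 ± 0.25, adjusted p = 0.000531), Cebpa (1.53) and Plin4 (2.67) higher and Lpl lower, while Adipoq and Lep, which mark mature fat cells, were at or near 0. Of 5 neural markers Map2 rose (2.52) and Stmn2 (-4.01), Tubb3 (-1.56), Sox2 (-1.44) and Nes (-0.74) fell, with 3 of the 5 calls left without DKO library 14 or 15 or MycKO library 10 or 11. Of the endothelial list 4 of 11 were tested, with Erg (2.99) and Tek (1.32) higher and Kdr (-1.77) lower. Among 11 fibroblast markers, Col1a1 and Col3a1 rose, and Thy1, S100a4 (-2.05) and Twist1 (-0.56) fell, and 8 were called without WT library 4. In S100a4, of which 27% of 32-base stretches are shared with Gm42674, MycKO library 9 held 724 CPM against 255.8 and 237 CPM in the other MycKO libraries.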

How the data were processed

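RNA from 24 mouse fibroblast samples, 3 for each of 4 genotypes as primary and as immortalized cells, was sequenced from poly-A-selected directional libraries. The authors deposited scaled CPM signal values per gene, 1 table for primary and 1 for immortalized cells, and the submitters' processing notes name GRCm39 (mm39). Per the study's methods the authors mapped reads with CLC Genomics Workbench. The annotation release, the use of strand in counting and the scaling between libraries are not given in the sources used here. The deposited signal values came out as whole reads in every library (tolerance 0.01 reads), which gave totals on genes of 17541112 to 19851300 for the immortalized libraries. Precision given by 3 reads as a floor covers counting error only.

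Testing covered genes that reached 1 CPM in 3 or more of a table's 12 libraries, and used limma (version 3.58.1, R 4.3.3) on log2(CPM + 1), with a trend in the variance prior and the 4 genotypes of a table in 1 fit. A gene was called at a Benjamini-Hochberg adjusted p under 0.05. With 3 libraries against 3, an exact permutation test of a single gene cannot go below 0.1. The unit differed from the plain CPM first assumed, but the test did not change. The steps were tested on simulated data. Alternatives were 2 count models fitted to the recovered reads (edgeR 4.0.16, then DESeq2 1.42.0), other scalings, filters, pseudocounts and variance priors, a minimum fold, only the groups compared, and each library left out. Summing near-identical gene pairs was chosen after seeing the data.

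The genes named were members of the lists on Mlx, Myc, carbohydrate response, arrestins, CDK inhibitors, rescue genes and sex linkage, the 12 largest called rises and 12 largest falls without overlap, up to 4 of the largest called members of each other list, and the 5 largest interactions in each direction. Some genes that met this rule are not reported here, though they count in the totals. Further list members are named as examples after their values were seen. Members and lists were chosen with earlier results of these data known. Shared sequence, antisense overlap and promoters were taken from GENCODE vM39 on GRCm39, in which 41181 of 41710 genes were found.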

Additional observations from a re-analysis of the deposited data

Results flagged for a closer look

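The effect of Mlx loss differed with Myc status for 6108 of 12880 genes in immortalized cells by the interaction term of limma, in which DKO against MycKO is set against MlxKO against WT. Among genes also called in DKO against MycKO cells, the largest positive log2 interactions were those of Cdsn (8.14), Sfrp2 (7.65), Malrd1 (7.06), Il1rn (6.99) and Mest (6.91). Large negative interactions were those of Crabp1 (-10.27), Thy1 (-8.00), Stmn2 (-6.79) and Galnt17 (-6.74). Of the genes described for their roles, Arrdc4 (1.39), Arrb1 (1.65), Mycl (-3.83) and Hmga1 (-3.57) were called as well. The knockout lines also differ in embryo pool and history, and the floxed line behind the WT cells is not stated. WT cells alone were not given 4-hydroxytamoxifen. None of this can be told apart from the interaction. Groups of 3 libraries were too small for a test of single outlying libraries.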

How the results depend on the processing

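Requiring a log2 change of at least 1 left 1415 genes in DKO against MycKO cells, 3186 for the interaction, 866 in MlxKO against WT and 336 in primary cells, and left Mlx (-0.56) uncalled. Leaving out each library in turn gave 2578 to 5266 genes for DKO against MycKO, 4956 to 7299 for the interaction, 2053 to 3302 in primary cells, and 2884 (without MlxKO library 6, 3180 without MlxKO library 7) to 6033 for MlxKO against WT. The difference in Mlx then ranged from -0.63 to -0.46, and the call was lost at -0.46, -0.48 and -0.55 without DKO library 13, MycKO library 9 and MycKO library 10. With Gm10184 summed, the sign of Kpna2 reversed to 0.12. Scaling by library totals moved the share of higher calls in MlxKO against WT from 49.0% to 69.9% and the share of positive interactions from 49.9% to 37.2%, with median shifts of 0.16 and -0.17. Of the called named genes other than Mlx, edgeR kept 186 and lost 2, and leaving out DKO library 14 kept 147. DESeq2 kept 180 and gave no adjusted p for 8. No direction of these genes reversed. No paired analysis was possible because the columns carry library numbers that the labels do not tie to replicate numbers.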
